A study of Mus musculus with 2 samples.

Results

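Connexins are the proteins of gap junctions, and 4 connexin genes of the mouse yolk sac are described here: Gja1, Gja4, Gja5 and Gjc1. They were taken by gene symbol from the gene table of both libraries, 4 of 33456 genes. The genes were selected on their UMI counts in these same libraries, in which Gja4 had stood out in the mutant. Levels and ratios of the 4 genes are therefore a description, and no test between genotypes was possible or made.

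The study sequenced single yolk sac cells of B6 mice with the 10x Genomics 5′ chemistry. There was 1 wild-type (WT) library and 1 library of Baf155 conditional knockout (CKO) embryos. Baf155, encoded by Smarcc1, is a core subunit of the BAF chromatin remodelling complex. For both genotypes, E9.5 and E10.5 yolk sacs in equal embryo numbers were pooled, dissociated in 0.25% collagenase, frozen, and sorted to remove dead and Ter119-positive cells. Not given in the sources used here are the Cre driver, the deleted exon and the number of embryos. By label the material is nuclei, although whole cells are described in the protocol, and no cell can be assigned to E9.5 or E10.5. With 1 library per genotype, a difference of genotype cannot be told apart from one of embryos, stage, sort or library.

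Connexins assemble into hemichannels, and hemichannels of neighbouring cells dock into a channel that passes ions and small molecules. Gja4 encodes connexin 37, known from arterial endothelium and also from platelets and megakaryocytes. Gja5 encodes connexin 40, the other classical arterial connexin. Gja1 encodes connexin 43, the most widely expressed family member, and Gjc1 encodes connexin 45, known from early smooth muscle and heart.

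In GRCm38 the genes lie apart. Gja4 (ENSMUSG00000050234) occupies chr4:127311421-127314039 on the minus strand. Gja1 (ENSMUSG00000050953) occupies chr10:56377330-56402513 on the plus strand. Gja5 (ENSMUSG00000057123) occupies chr3:96904693-97077416 on the plus strand, and Gjc1 (ENSMUSG00000034520) chr11:102799579-102819700 on the minus strand. The coding sequence sat in a single exon in 6 of 6 coding transcripts of Gja1, 1 of 1 of Gja4, 2 of 3 of Gja5 and 3 of 3 of Gjc1.

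RefSeq promoter windows (GRCm38.p6, 250 bases before to 50 after the start) were available for 3 of the 4 genes. They are shown because Gja4 was seen with the transcription factor gene Sox17 in some CKO cells and without it in others. In the endothelial gate Gja4 was higher in CKO, while Gja5 and Gja1 were lower. Most WT Gja5 UMIs of that gate nevertheless lay in cells with Gja4. Whether the windows bear on these patterns was not tested. Sequences run 5′ to 3′ on the strand of the gene. The Gja4 window is chr4:127313990-127314289, minus strand, that of Gja5 chr3:97032152-97032451, plus strand, and that of Gja1 chr10:56377050-56377349, plus strand. Capitals mark matches on either strand to the letters ACAAT, which form the core of SOX sites, to the GC box GGGCGG, to the TATA-like letters TATTTAA, to the GATA factor letters AGATAA and to the AP-1 letters TGANTCA. The marked matches do not overlap each other.
Gja4: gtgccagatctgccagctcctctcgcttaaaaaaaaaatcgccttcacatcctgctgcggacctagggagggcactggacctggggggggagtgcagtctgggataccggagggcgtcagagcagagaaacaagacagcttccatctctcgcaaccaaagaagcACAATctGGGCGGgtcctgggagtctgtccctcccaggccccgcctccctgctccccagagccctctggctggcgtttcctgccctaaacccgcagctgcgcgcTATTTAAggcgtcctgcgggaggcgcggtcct
Gja5: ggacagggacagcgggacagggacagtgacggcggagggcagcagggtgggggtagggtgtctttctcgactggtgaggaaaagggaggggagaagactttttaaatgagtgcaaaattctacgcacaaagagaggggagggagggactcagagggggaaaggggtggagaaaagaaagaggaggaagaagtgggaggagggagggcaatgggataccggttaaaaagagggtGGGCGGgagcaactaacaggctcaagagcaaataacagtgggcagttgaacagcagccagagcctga
Gja1: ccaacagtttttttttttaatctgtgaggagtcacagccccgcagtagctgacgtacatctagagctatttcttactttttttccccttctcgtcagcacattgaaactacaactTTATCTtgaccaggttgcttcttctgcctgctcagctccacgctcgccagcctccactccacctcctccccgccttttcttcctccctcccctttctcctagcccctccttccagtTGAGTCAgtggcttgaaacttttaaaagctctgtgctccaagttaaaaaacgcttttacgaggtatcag
In the Gja4 window, ACAAT lay 86 bases before the start and the GC box 79 bases before it, and TATTTAA lay 18 bases after the start. The Gja5 window held a GC box 17 bases before the start, and neither it nor the Gja1 window held ACAAT. The Gja1 window held AGATAA, as its reverse complement, 135 bases before the start and the AP-1 letters 19 bases before it. Of all 32851 promoter windows of this length, 31.02% held ACAAT, 35.66% the GC box, 4.508% TATTTAA, 11.18% AGATAA and 7.808% TGANTCA. GC content was 62% in the Gja4 window, 55.67% in that of Gja5 and 47.67% in that of Gja1, where the median window had 52.67%. Further sets of letters were searched on both strands and are not marked. The RBPJ letters TGGGAA and the consensus core promoter letters TATAAA were in none of the 3 windows, and 25.56% and 13.62% of all windows held them. The short letters GGAAG (ETS) and CANNTG (E-box) were in all 3, and in 71.41% and 72.31% of all windows. The KLF letters CACCC, in 57.52% of all windows, matched 4 times on the minus strand of the Gja5 window, the last match sharing a base with the GC box, and not in the other windows. In the Gja1 window an E-box match overlapped the AP-1 letters and an ETS match. A match of letters is a description of the window and says nothing of binding.

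Cell filters left 784 WT and 841 CKO cells, at median depths of 28186.5 and 28268 UMIs per cell. Cells were placed in gates by marker genes that included none of the 4 connexins. Over all kept cells, the Smarcc1 level was 94.9 CPM (UMIs of a gene per 1000000 UMIs of the same cells) in WT and 24.0 CPM in CKO, a ratio of 0.253 (95% interval 0.232 to 0.276). In the 13 CKO macrophage-gate cells it was not lower, at 90.3 CPM against 83.0 in 45 WT cells. The endothelial gate held 51 WT and 56 CKO cells (median depths 13207 and 23866 UMIs), the progenitor gate 128 and 47 (40991.5 and 43382), and cells passing both gates, called endothelial-progenitor cells, 23 and 56 (45100 and 37986.5). The megakaryocyte gate held 37 and 94 (49086 and 28211.5) and the stromal gate 241 and 275 (22267 and 21889). Hbb-y, an embryonic globin gene, reached 164 CPM in WT and 1118 CPM in CKO stromal cells, and free RNA was not removed from the counts. Intervals throughout are at 95% and reflect counting error alone, which treats UMIs of 1 cell as independent although they are not.

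**Figure D1:**
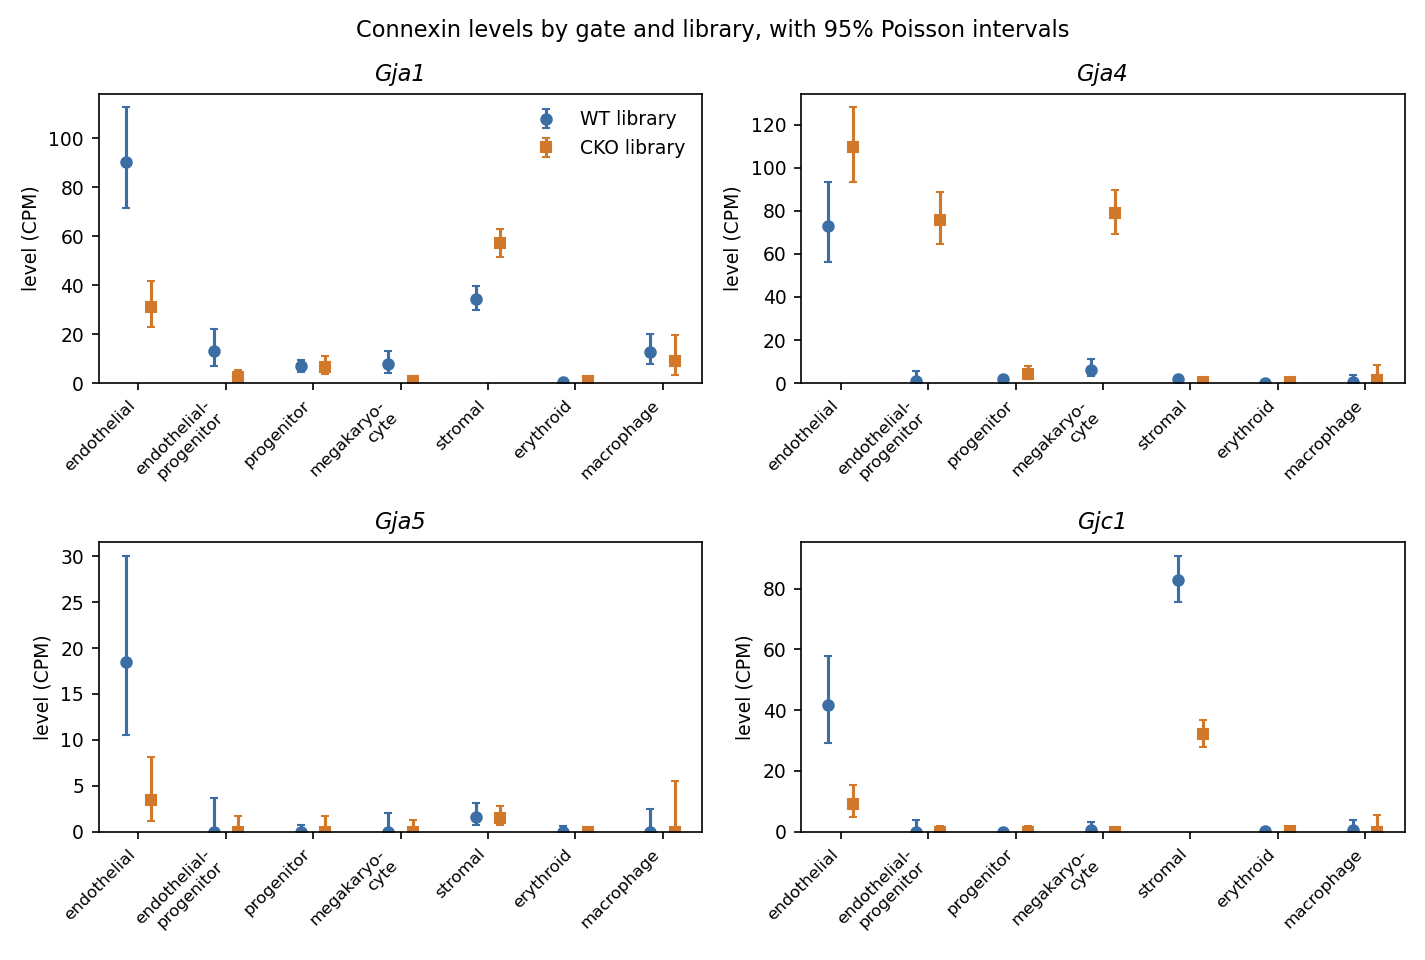
Levels of the 4 connexin genes (y axis, CPM, summed counts) in 7 gates (x axis), for the WT library (circles) and the CKO library (squares), with exact 95% Poisson intervals. Gja4 stood near 76 to 110 CPM in CKO endothelial, endothelial-progenitor and megakaryocyte cells, Gja5 was seen in endothelial and stromal cells, and Gjc1 in stromal and endothelial cells.

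Among the 4 genes, Gja4, the arterial and platelet connexin, had the widest gap between the libraries. Over all kept cells, 97 Gja4 UMIs were counted in 27 of 784 WT cells and 630 in 128 of 841 CKO cells. This gave 4.02 CPM (3.26 to 4.90) and 23.4 CPM (21.6 to 25.3), a ratio of 5.83 (4.70 to 7.29). The CKO UMIs lay mainly in endothelial, endothelial-progenitor and megakaryocyte cells. In erythroid cells, which served as the level of cells expected to lack the gene, 0 of 157 WT cells and 4 of 251 CKO cells had a Gja4 UMI (median depths 32903 and 35260 UMIs). The WT count of 0 allows a share of up to 1.91%, and the CKO level was 0.430 CPM. Stromal cells had 1.81 CPM in WT, 10 UMIs in 3 cells, and 0.449 CPM in CKO, 3 UMIs in 3 cells.

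Within the endothelial gate Gja4 was seen in few WT cells and in most CKO cells. A UMI was found in 7 of 51 WT cells, 13.7% (exact binomial interval 5.70 to 26.3), and in 35 of 56 CKO cells, 62.5% (48.5 to 75.1). With each cell thinned to 6000 UMIs the shares were 11.8% and 39.3%. The 7 WT cells held 40, 16, 2, 2, 1, 1 and 1 UMIs. The highest CKO cell held 17, and 18 CKO cells held at least 4. WT Gja4 was thus concentrated in a pair of cells, whereas in CKO many cells held a moderate number. The summed levels differed less than the shares, at 72.9 CPM (56.0 to 93.3) in WT and 110 CPM (93.1 to 128) in CKO, a ratio of 1.50 (1.12 to 2.05), which was not past 2-fold. Without the cell of most UMIs in each library, WT stood at 27.4 CPM and the ratio was 3.63 (2.32 to 5.91). It was 1.73 (0.960 to 3.29) among Xist-positive cells and 40.8 (7.15 to 1626) among Y-linked-positive cells, where WT had 1 UMI in 18 cells. Cells with both or neither of Xist and Y-linked UMIs were in neither class. The WT Xist-positive class had 19 of the 51 cells and 16 Gja4 UMIs, all in 1 cell. The WT cell with 40 UMIs was in neither class. All 8 endothelial markers were seen in both libraries, summing to 2580 CPM in WT and 2327 CPM in CKO. Megakaryocyte markers stood at 79.8 and 180 CPM in the gate, stromal markers at 25.5 and 110 CPM, and granulocyte-monocyte markers at 11.6 and 113 CPM. Lower in CKO were endoderm markers (82.1 and 14.6 CPM), trophoblast markers (245 and 43.7, from 1 of 5 genes), macrophage markers (207 and 105) and parietal endoderm markers (2167 and 1255). Their part in the result was not tested.

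**Figure D2:**
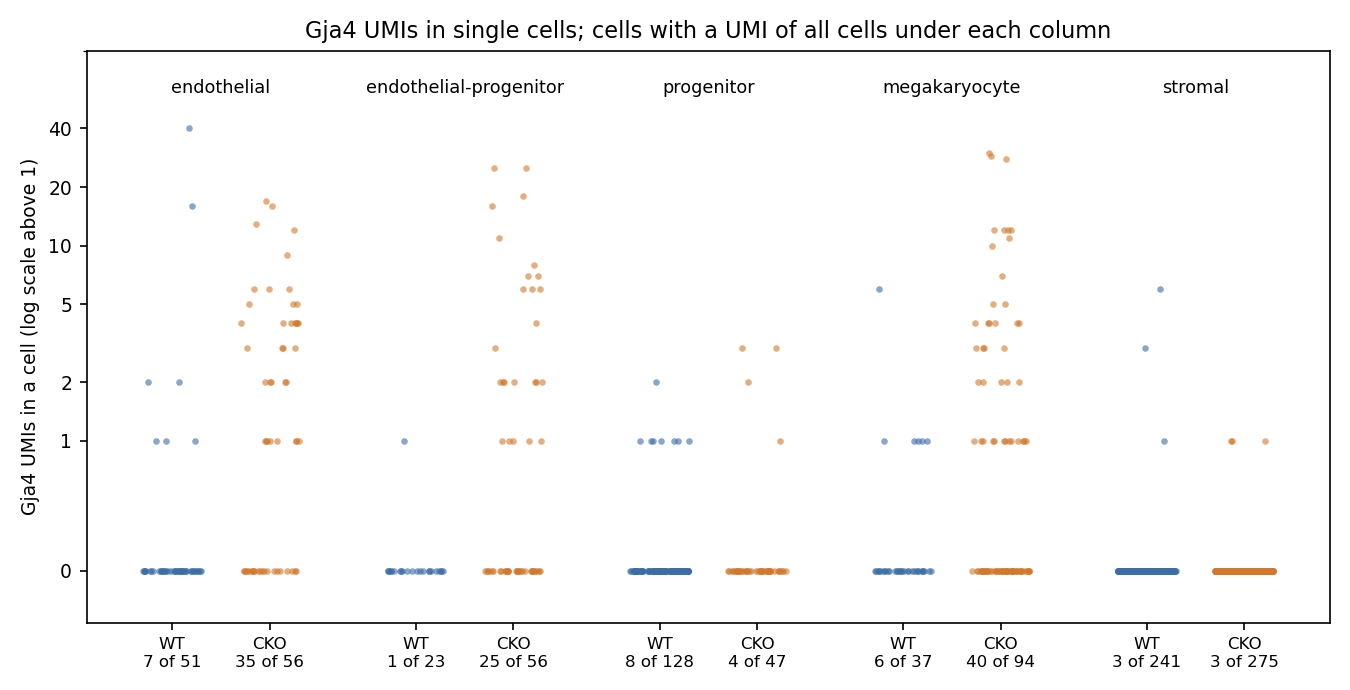
Gja4 UMIs in each cell (y axis, log scale above 1) by gate and library (x axis), 1 point per cell, with the number of cells holding a UMI under each column. In the endothelial gate 2 WT cells with 40 and 16 UMIs stand apart, and CKO cells fill the range from 1 to 17 UMIs.

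Most WT endothelial Gja5 UMIs lay in cells with Gja4. Of the 7 cells with Gja4, 3 had Gja5, and 2 of the 44 without Gja4 had it. The 7 cells held 14 of the 16 Gja5 UMIs of the gate, 103 CPM against 2.75 CPM. Both leading cells, with 40 and 16 Gja4 UMIs, had 6 Gja5 UMIs each. Sox7, a transcription factor gene, stood at 95.4 against 20.6 CPM (ratio 4.63, 2.03 to 10.4). Efnb2, an arterial ligand gene, stood at 73.4 against 16.5 CPM (4.45, 1.72 to 11.2), and Sox17 at 169 against 70.1 CPM (2.41, 1.41 to 4.01). Dll4, the arterial Notch ligand gene, stood at 51.4 against 45.3 CPM (1.13, 0.423 to 2.61). Cdh5, the cadherin gene of all endothelium, was also higher, at 565 against 338 CPM (1.67, 1.28 to 2.17). Gja1 stood at 44.0 CPM in these cells and 98.9 CPM in the others, with a ratio interval of 0.158 to 1.02. In the CKO library the 35 cells with Gja4 had 4 Gja5 UMIs against 1 in the other 21. Efnb2 stood at 34.4 against 35.2 CPM there and Sox7 at 35.4 against 22.8 CPM. Sox17 was seen in 31 of the 35 and in 14 of the 21, at 228 and 172 CPM (1.33, 1.03 to 1.73). The 7 and 44 WT cells had median depths of 17235 and 13196.5 UMIs, the 35 and 21 CKO cells 25573 and 22147. These splits were made on Gja4 itself and the difference between the libraries was not tested.

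Cells that passed the endothelial and the progenitor gates together showed the widest gap. Gja4 had 1 UMI in 1 of 23 WT cells and 161 UMIs in 25 of 56 CKO cells. The levels were 0.998 CPM (0.0253 to 5.56) and 75.9 CPM (64.6 to 88.6), a ratio of 76.1 with an interval of 13.5 to 3025. Among CKO cells the highest held 25, 25 and 18 UMIs, and 31 cells held none. Gja4 was the only member with 20 UMIs over both libraries here, reached through its CKO count, and it was past 2-fold. In this gate 8.62% of 7961 genes were past 2-fold higher in CKO. Sox17 moved alike, with 3 UMIs in WT and 259 in CKO (40.8, 13.8 to 199). Of the 25 CKO cells with Gja4, 18 had Sox17, at 205 CPM, and of the 31 without it 9 had Sox17, at 53.5 CPM (ratio 3.83, 2.86 to 5.17). Their depths were close, with medians of 37883 and 38142 UMIs. The gate itself differed between the libraries, its endothelial markers summing to 563 CPM in WT and 1238 in CKO and its progenitor markers to 1063 and 733. The part of these differences in the Gja4 result was not tested. No Gja5 or Gjc1 UMI was found in either library, although 56 CKO cells with 2120575 UMIs were read. That count of 0 allows up to 1.41 CPM in CKO.

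Cells of the progenitor gate alone, which did not reach the 4 endothelial markers needed, had little Gja4. Their endothelial markers summed to 259 CPM in WT and 350 CPM in CKO, with all 8 seen. WT had 9 UMIs in 8 of 128 cells, 1.81 CPM, and CKO 9 UMIs in 4 of 47 cells, 4.20 CPM. The interval of the ratio, 0.816 to 6.60, included 1. The only member with 20 UMIs was Gja1, which was not past 2-fold. Of 9271 genes, 10.6% were past 2-fold, 6.2% higher and 4.39% lower in CKO. With 1 more marker needed in each gate, which also moves cells out of the endothelial-progenitor gate, the Gja4 ratio was 15.4 (7.35 to 37.1). It was 23.8 (12.6 to 50.6) with endothelial-progenitor cells counted in, and 8.17 (0.656 to 429) after thinning, from 1 and 3 UMIs.

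The megakaryocyte gate, which took precedence over the endothelial and progenitor gates, held more CKO Gja4 UMIs than any other gate. Of its 94 CKO cells, 16 also passed the endothelial gate and 25 the endothelial and progenitor gates, so this rank depends on that precedence. Megakaryocyte-gate cells held 232 of the 630 CKO UMIs, in 40 of 94 cells, and 11 of the 97 WT UMIs, in 6 of 37 cells. The level was 6.19 CPM (3.09 to 11.1) in WT and 79.0 CPM (69.1 to 89.8) in CKO, a ratio of 12.8 (7.01 to 25.9). A single WT cell held 6 of the 11 UMIs. The highest CKO cell held 30, and 54 CKO cells held none. Gja4 was the only member with 20 UMIs in this gate, reached through its CKO count. Of all genes, 12.4% were past 2-fold higher in CKO, as it was. The ratio was 31.2 (10.4 to 153) among Xist-positive cells and 4.55 (2.18 to 11.0) among Y-linked-positive cells, and 6.71 with 1 more marker needed. The gate did not hold the same cells in both libraries. Megakaryocyte markers summed to 720 CPM in WT and 5124 CPM in CKO, and 27 of the 37 WT cells passed the progenitor gate alone beside it and 7 the progenitor and endothelial gates, against 25 and 25 of the 94 CKO cells. Within cells that passed the megakaryocyte and progenitor gates and no other, Gja4 was at 7.04 CPM in WT and 47.9 in CKO (6.80, 3.29 to 15.8). Smooth muscle markers, at 10.1 and 168 CPM, and the cardiomyocyte list, at 1.12 and 43.9 CPM from 2 of its 5 genes in CKO, moved with the gate too, and their part in the result was not tested. Gja4 in stromal cells, where smooth muscle markers reached 2722 CPM in CKO, was 0.449 CPM.

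Sox17, an arterial endothelial transcription factor gene, was absent from most megakaryocyte cells with Gja4, being found in 3 of those 40 CKO cells. CKO cells that passed the megakaryocyte gate and no other numbered 28, and 18 of them had Gja4, 60 UMIs or 103 CPM (78.4 to 132). They had 0 Sox17 UMIs, which allows up to 5.14 CPM, and 0 UMIs of Cdh5, the endothelial cadherin gene. Cdh5 is a marker of the endothelial gate, which these cells did not pass, so its low count was partly set by the selection. In the 16 CKO cells that passed the endothelial gate as well, Gja4 stood at 161 CPM (124 to 205) and Sox17 again at 0 UMIs. CKO cells passing all 3 gates numbered 25, with 60 UMIs of Gja4 and 38 of Sox17. In the CKO endothelial gate, for comparison, Sox17 stood at 209 CPM beside 110 CPM of Gja4. Only 3 WT cells passed the megakaryocyte gate alone, with 1 Gja4 UMI, so this comparison has almost no WT counterpart.

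**Figure D3:**
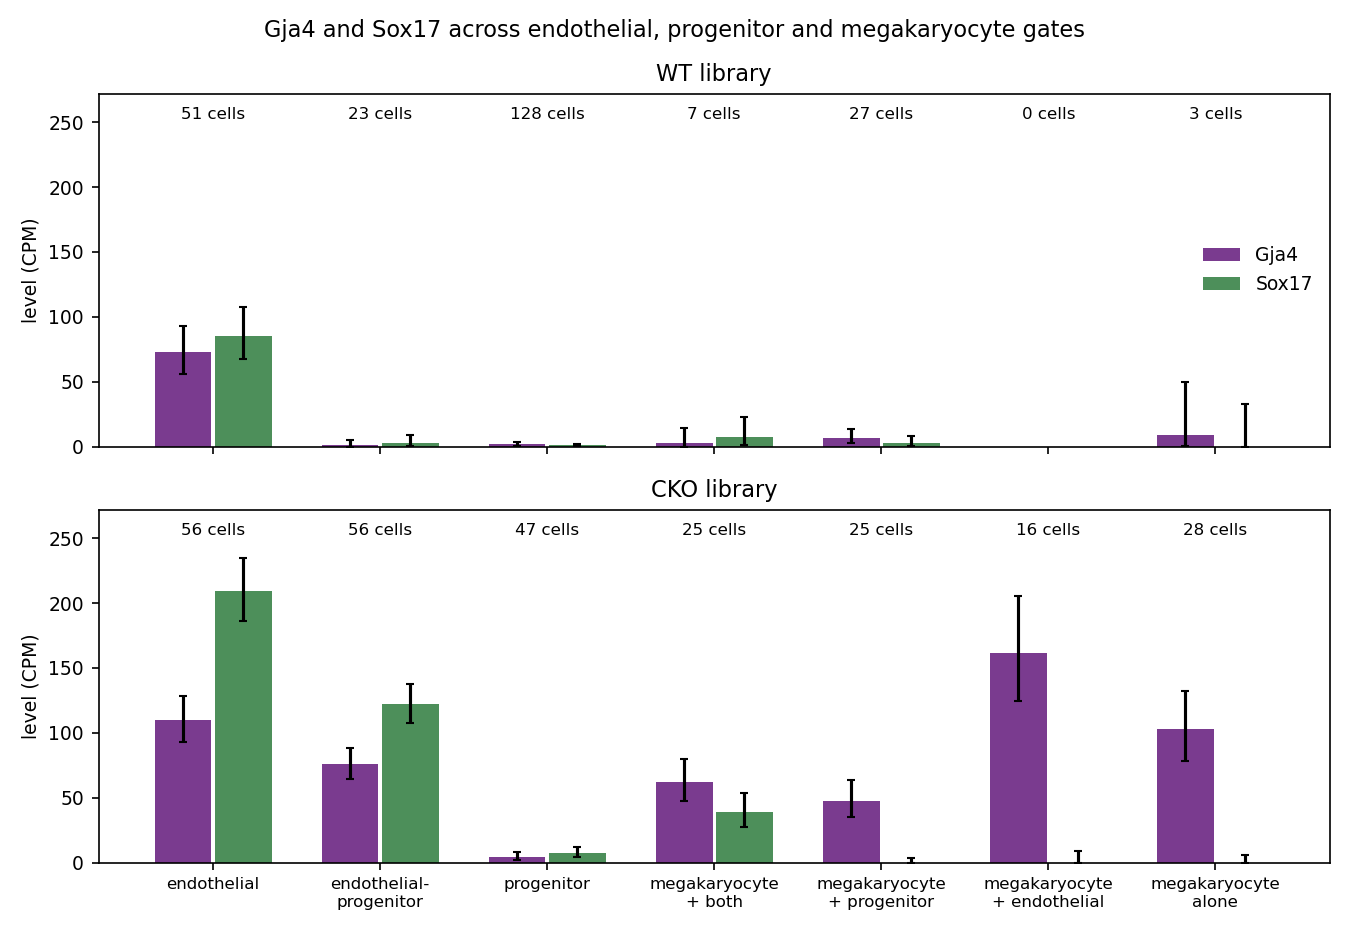
Levels of Gja4 and Sox17 (y axis, CPM, bars from 0 with exact 95% Poisson intervals) in the WT library (upper panel) and the CKO library (lower panel), by gate and by the parts of the megakaryocyte gate (x axis), with cell numbers above the bars. Gja4 reached 103 and 161 CPM in CKO megakaryocyte cells in which Sox17 had 0 UMIs.

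Pf4 and Itga2b, a pair of the gate's markers, were higher in CKO megakaryocyte cells with Gja4. Among CKO megakaryocyte-gate cells, Pf4, the platelet factor gene used in the gate, stood at 6091 CPM in the 40 cells with Gja4 and 2033 CPM in the 54 without. Itga2b, encoding the platelet integrin chain, stood at 582 and 215 CPM. Within the 28 cells that passed no other gate, Pf4 differed little, at 9888 against 9120 CPM. In WT the 6 cells with Gja4 held 367 Pf4 UMIs and the other 31 cells 82, but 323 of the 367 lay in 1 cell, which had 1 Gja4 UMI. None of the 6 WT cells had a Sox17 or Gja1 UMI. Globin RNA moved with the gate: WT megakaryocyte cells had 220 CPM of Hbb-y and CKO ones 2557 CPM, a ratio of 11.6, and those without other gates 107 and 8117 CPM. Among CKO megakaryocyte cells it was at 3739 CPM with Gja4 and 1843 without, and in those without other gates at 8158 and 8030. CKO erythroid cells, with 113489 CPM of Hbb-y, had 0.430 CPM of Gja4. The part of globin RNA in the Gja4 result was not tested.

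Retained Smarcc1 RNA gave a further split within the CKO library. In the megakaryocyte gate, Gja4 was at 37.3 CPM in the 33 cells with a Smarcc1 UMI and at 112 CPM in the 61 without (0.334, 0.238 to 0.461). The cells with Smarcc1 were deeper, with a median of 37671 against 24310 UMIs. In the endothelial gate the values were 53.2 CPM in 11 cells and 123 CPM in 45 (0.432, 0.236 to 0.737), at medians of 22557 and 25098 UMIs. Endothelial-progenitor cells had 68.7 CPM in 18 cells and 79.5 CPM in 38, with an interval of 0.603 to 1.22 for the ratio. WT endothelial cells went the other way by value, 88.7 CPM in 32 cells with a Smarcc1 UMI and 30.0 CPM in 19 without, with 2 cells holding 56 of the 63 UMIs. Among CKO megakaryocyte cells, Xist-positive ones had 8.97 CPM of Smarcc1 and 115 CPM of Gja4, and Y-linked-positive ones 47.3 and 46.0 CPM. In CKO endothelial cells these levels were 7.61 and 67.0 CPM against 8.97 and 150 CPM. In CKO endothelial-progenitor cells they were 6.04 and 52.3 CPM against 13.8 and 115 CPM. The part of sex or embryo in the Smarcc1 split was not tested. Whether a cell without a Smarcc1 UMI lacked the gene product was not tested.

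Gja1 was lower in CKO endothelial cells and higher in CKO stromal cells. Endothelial Gja1 was counted in 36 of 51 WT cells (78 UMIs, at most 7 in a cell) and 19 of 56 CKO cells (45 UMIs, at most 6). The levels were 90.2 CPM (71.3 to 113) and 31.2 CPM (22.8 to 41.8), a ratio of 0.346 (0.234 to 0.505), and the shares of cells 70.6% and 33.9%, or 49.0% and 12.5% after thinning to 6000 UMIs. Thinned, the ratio was 0.178 (0.0720 to 0.384). All 4 members had 20 UMIs in the endothelial gate, and 3 of them, Gja1, Gja5 and Gjc1, were past 2-fold lower in CKO. Of 7713 genes there, 7.45% were past 2-fold lower and 12.7% past it in either direction. The ratio of Gja1 was 0.383 among Xist-positive and 0.299 among Y-linked-positive cells. Endothelial-progenitor cells had 13 UMIs in WT and 5 in CKO (0.182, 0.0508 to 0.543), and megakaryocyte-gate cells 14 and 3 (0.130, 0.0239 to 0.465). These low counts moved with the settings: the ratio was 0.660 (0.142 to 3.33) in Xist-positive endothelial-progenitor cells and 0.295 (0.0266 to 2.06) in megakaryocyte cells with 1 more marker needed. Progenitor-gate levels were close, at 6.83 and 6.53 CPM. Within the CKO endothelial gate, Gja4 was lower in the 19 cells with Gja1 than in the 37 without, 67.1 against 138 CPM (0.485, 0.329 to 0.702). In WT, Gja4 was at 32.7 against 171 CPM. There 1 cell without Gja1 held 40 of the 63 Gja4 UMIs of the gate, so the WT direction rests on that cell. The whole libraries were close, with Gja1 levels of 18.2 and 18.4 CPM over all kept cells.

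In the stromal gate Gja1 had 190 UMIs in 104 of 241 WT cells and 381 in 163 of 275 CKO cells. The level was 34.4 CPM (29.7 to 39.6) in WT and 57.1 CPM (51.5 to 63.1) in CKO, a ratio of 1.66 (1.39 to 1.99). It was 1.41 among Xist-positive and 1.80 among Y-linked-positive cells. Stromal cells were split further by smooth muscle and mesothelial markers. The ratio was 1.95 (1.47 to 2.60) in cells with both marker lists and 1.46 (1.05 to 2.03) with smooth muscle markers alone. It was 1.27 (0.829 to 1.97) with mesothelial markers alone and 1.67 (0.936 to 3.12) with neither, and these last 2 intervals included 1. Outside these gates, Gja1 reached 52.3 CPM in 30 WT endoderm cells and 12.8 and 9.03 CPM in WT and CKO macrophage cells. Erythroid cells had 0.358 and 0.860 CPM.

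Gja5 was rare. All kept cells held 25 UMIs in WT and 16 in CKO. The endothelial gate had 16 UMIs in 5 of 51 WT cells, 18.5 CPM (10.6 to 30.1), and 5 UMIs in 3 of 56 CKO cells, 3.47 CPM (1.13 to 8.09). The ratio was 0.187 (0.0537 to 0.535), and it turned to 1.22 (0.0982 to 64.2) among Y-linked-positive cells. Of the 16 WT UMIs, 12 lay in the 2 cells of highest Gja4. Stromal cells had 9 UMIs in 8 WT cells and 10 in 7 CKO cells. No Gja5 UMI was counted in the progenitor, endothelial-progenitor, megakaryocyte, erythroid or macrophage gates of either library. In the 94 CKO megakaryocyte cells, in which Gja4 had 232 UMIs, this allows up to 1.02 CPM of Gja5.

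Gjc1 was counted mainly in stromal cells, and it was lower in CKO in the stromal and endothelial gates. Cells of no gate held 59 UMIs in 52 WT cells, 52.6 CPM, and 13 in 24 CKO cells, 24.9 CPM, and mixed cells 3 and 9 UMIs. Stromal cells had 458 UMIs in 191 of 241 WT cells and 214 in 122 of 275 CKO cells. The level was 82.8 CPM (75.4 to 90.8) in WT and 32.0 CPM (27.9 to 36.6) in CKO, a ratio of 0.387 (0.327 to 0.456). Of the 2 members with 20 UMIs in this gate, Gjc1 was past 2-fold lower and Gja1 was not past 2-fold. Among 11038 genes 3.63% were past 2-fold lower in CKO, 6.11% higher and 9.74% either. The Gjc1 ratio was 0.343 (0.264 to 0.441) with smooth muscle markers alone, 0.528 (0.321 to 0.853) with mesothelial markers alone, 0.453 (0.338 to 0.605) with both and 0.330 (0.188 to 0.564) with neither. Smooth muscle markers over the whole gate summed to 4315 CPM in WT and 2722 in CKO, and mesothelial markers to 1393 and 1940. The 4 parts were cut on these same marker lists, and marker levels within a part were not compared. The part of these marker differences in the Gjc1 result was not tested. Endothelial cells had 36 UMIs in 21 WT cells and 13 in 10 CKO cells, 41.7 and 9.01 CPM (0.216, 0.105 to 0.418). All 13 CKO UMIs lay in Xist-positive cells, where the ratio was 0.513 (0.227 to 1.14), and Y-linked-positive cells had 8 UMIs in WT and 0 in CKO. Progenitor and endothelial-progenitor cells had 0 Gjc1 UMIs in both libraries, and the 128 WT progenitor cells allow up to 0.603 CPM.

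**Figure D4:**
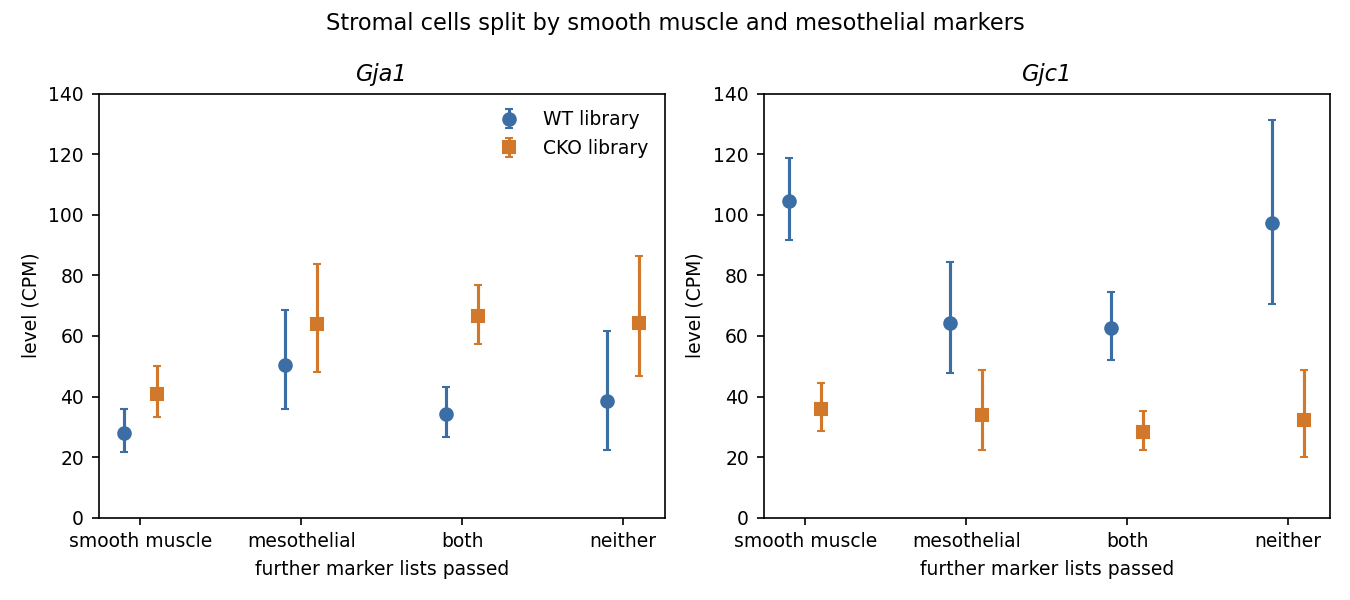
Levels of Gja1 (left) and Gjc1 (right) in stromal cells (y axis, CPM, exact 95% Poisson intervals) split by the smooth muscle and mesothelial marker lists they also passed (x axis), for the WT library (circles) and the CKO library (squares). Gjc1 is lower and Gja1 higher in CKO in each of the 4 parts by value, and the interval of the Gja1 ratio includes 1 in mesothelial cells and in cells with neither list.

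**Figure D5:**
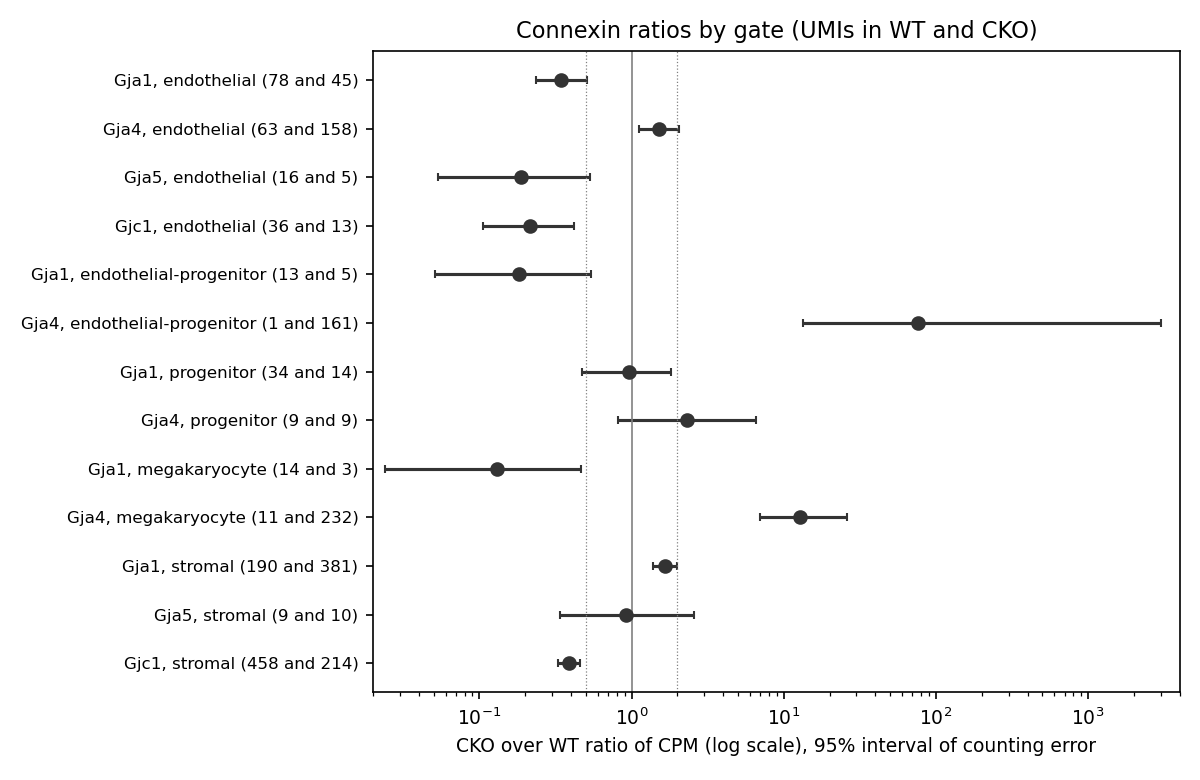
CKO over WT ratios of the 4 connexins (x axis, log scale, 95% intervals of counting error) in 5 gates (rows, with the UMIs in WT and CKO) where at least 15 UMIs were counted, dotted lines marking 2-fold. Gja4 lies above 1 and Gja1, Gja5 and Gjc1 below 1 in endothelial cells, and stromal Gja1 lies at 1.66.

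The other 19 connexin and pannexin genes gave few UMIs where the 4 members were high. None had 20 UMIs in the endothelial gate over both libraries, and 15 had no UMI there. Gjb5, a connexin of trophoblast and skin, was counted mainly in stromal cells, at 7.96 and 14.7 CPM (1.84, 1.28 to 2.70), and Panx1, a pannexin gene, at 6.51 and 3.74 CPM there. Panx1 was past 2-fold lower in endothelial-progenitor cells (0.448, 0.222 to 0.902), the only such gene of that list with 20 UMIs, where 5.1% of genes were and 13.7% lay past 2-fold in either direction.

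Other genes listed here as arterial went both ways in endothelial cells, where 12 of 18 had 20 UMIs. Sox17 was past 2-fold higher in CKO, at 85.6 and 209 CPM, where 5.22% of all genes were. Notch1, Unc5b and Mecom were past 2-fold lower, where 7.45% of all genes were, and the other 8 lay within 2-fold, such as the receptor gene Nrp1 (0.549) and Acvrl1 (0.955). The median log2 ratio of the 12 was -0.52. In endothelial-progenitor cells 4 had 20 UMIs and 3 were past 2-fold higher, Sox17, Nrp1 (4.96) and Vegfc (2.21), beside 8.62% of all genes. These 3 passed the 20-UMI filter through CKO, with 3, 4 and 18 UMIs in WT against 259, 42 and 84, so the filter favoured this direction. Progenitor cells had the same 3 past 2-fold higher among 4, beside 6.2% of all genes. In the megakaryocyte gate 2 had 20 UMIs, Sox17 (3.29) and Vegfc (6.26), both past 2-fold higher, beside 12.4% of all genes. They passed the 20-UMI filter through CKO, with 7 and 6 UMIs in WT against 38 and 62, so the filter favoured this direction. Dll4, an arterial Notch ligand gene, and Hey1, a Notch target gene, had 0 UMIs there in either library. In stromal cells 9 had 20 UMIs, of which Efnb2 (5.92) was past 2-fold higher and Jag1 (0.489) lower, beside 6.11% and 3.63% of all genes. The interval of the Jag1 ratio, 0.226 to 1.02, included 1.

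Venous and lymphatic genes, 6 in all, each had 20 UMIs in endothelial cells, and Flt4, a lymphatic growth factor receptor gene, was past 2-fold lower (0.380), beside 7.45% of all genes. Aplnr, a venous receptor gene, was past 2-fold higher in endothelial-progenitor cells (5.44; 1 of 3 with 20 UMIs, beside 8.62% of all genes). It passed the 20-UMI filter through CKO, with 2 UMIs in WT and 23 in CKO. Lyve1 was higher in megakaryocyte cells (2.42), the only one with 20 UMIs there, beside 12.4%, and Nr2f2 lower in stromal cells (0.474), 1 of 5, beside 3.63%. Among 5 flow-induced genes, the 4 with 20 UMIs in endothelial cells lay within 2-fold, such as Klf2 (0.650). Klf2 was past 2-fold lower in progenitor cells (0.456), beside 4.39% of all genes, and in megakaryocyte cells (0.383), beside 5%. Klf4 was past 2-fold higher in progenitor cells (2.32), beside 6.2%, and in stromal cells (3.42), beside 6.11%. In progenitor cells it had 13 UMIs in each library, and the interval of the ratio, 0.991 to 5.43, included 1.

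Connexin partners and turnover genes numbered 12. In endothelial cells 8 had 20 UMIs: Prkca, a kinase gene, was past 2-fold higher (8.10 and 47.2 CPM), beside 5.22% of all genes. Tjp1, encoding the ZO-1 scaffold that binds connexin tails (0.471, 0.348 to 0.637), and Dbn1, the drebrin gene (0.376), were lower there, beside 7.45%. Among 7 genes in megakaryocyte cells, Prkca (38.2 and 222 CPM) and Src, another kinase gene (7.42), were past 2-fold higher, beside 12.4%. Among 5 in endothelial-progenitor cells, Ctnnb1, the beta-catenin gene, was higher (2.17), beside 8.62%, and Tjp1 lower (0.355), beside 5.1%. The 6 with 20 UMIs in progenitor cells lay within 2-fold. Of 9 in stromal cells 7 lay within 2-fold, while Cdh2, the N-cadherin gene, was higher (2.25), beside 6.11%, and Cav1, the caveolin gene, lower (0.454), beside 3.63%.

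The genes most like each member were sought over 14 combinations of gate and library, which share the 2 libraries and their depth, by the Pearson correlation of log2(CPM + 1) among 10390 genes. For Gja4 these were Fam198b (r = 0.94), Adora2a (0.92), Lrp11 (0.92), Cd200 (0.91) and Shroom4 (0.91), with Sox17 at 0.88. Cd200 had 0 and 47 UMIs in WT and CKO endothelial-progenitor cells and 1 and 32 in megakaryocyte cells. In endothelial cells, where Gja4 was at 72.9 and 110 CPM, Adora2a (18.5 and 31.2) and Lrp11 (19.7 and 32.6) were higher in CKO. Cd200 (17.4 and 16.6), Fam198b (10.4 and 6.93) and Shroom4 (8.10 and 6.93) were not. For Gja1 they were Ctnnbip1 (0.97), Tns3 (0.95), Rhobtb1 (0.95), Rcbtb1 (0.94) and Zbed3 (0.94). For Gja5, with few UMIs, they were Cfdp1 (0.95), Mcam (0.94), Tmem100 (0.94), Prex2 (0.94) and Ttll7 (0.93), and for Gjc1 Gdpd5 (0.97), Prss23 (0.96), Mfhas1 (0.96), Fam114a1 (0.96) and Aebp1 (0.96). Cfdp1 was also at 185 and 175 CPM in WT and CKO progenitor cells, which had 0 Gja5 UMIs. In stromal cells, where Gjc1 was at 82.8 and 32.0 CPM, Prss23 (33.1 and 18.4) and Mfhas1 (30.0 and 24.0) were lower in CKO. Aebp1 was at 53.9 and 53.2 CPM there, and Gdpd5 (9.95 and 14.5) and Fam114a1 (69.1 and 87.7) were higher. Among the members, Gja1 and Gjc1 correlated at 0.79, Gja5 and Gjc1 at 0.78, and Gja4 and Gja1 at 0.03.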

How the data were processed

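Per the submitters' processing notes, Cell Ranger, GRCm38 and Seurat were used. The authors deposited a matrix of whole-number UMI counts for each library, with no cell annotation in the files used here. The WT library had 815 barcodes and 24538853 UMIs, the CKO library 865 and 27314411, and 1 barcode was shared. Kept were barcodes of 500 or more genes whose mitochondrial share was not above 10%. Scrublet (scanpy 1.11.5, expected rate 1%, seed 0) marked 3 WT and 6 CKO barcodes as doublets, and these were left out. The sources used here do not say whether antisense reads were counted.

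A gate needed 4 of 8 endothelial, 3 of 7 progenitor, 4 of 8 megakaryocyte, 4 of 9 stromal, 2 of 5 erythroid, 3 of 6 macrophage or 4 of 8 endoderm markers at 2 or more UMIs. These numbers of markers were set after marker counts had been seen. Megakaryocyte took precedence over endothelial and progenitor, and macrophage over progenitor. Of 96 listed markers, 2 were not in the gene table.

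CPM is the summed UMI count of a gene over all UMIs of a gate, with exact Poisson intervals. Shares have exact binomial (Clopper-Pearson) intervals, and ratios conditional binomial intervals, all at 95% and for counting error only. The floor behind a count of 0 is 3 UMIs or cells. Past 2-fold means a CPM ratio of at least 2 or its inverse, for genes whose UMIs in both libraries summed to 20 or more. A gene can pass this sum through the library in which it is high. Counts of members or list genes past 2-fold are therefore a description. With 1 library per genotype no test was made. The ratio and interval were tested on simulated gate sums drawn from a Poisson distribution with known fold changes. No single cells were simulated, so the test could not cover the clumping of UMIs in single cells.

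The members and gene lists were chosen with earlier results of these data known. Named genes were the 4 members, the 5 genes most alike to each over combinations with at least 20 cells, and list genes past 2-fold or of most UMIs. Splits by Gja4, Gja1 and Smarcc1 UMIs were added after values had been seen, as were genes named in them. Promoters came from RefSeq (GRCm38.p6) and positions from GENCODE, in which 97.61% of gene IDs were found. Alternatives covered the gates, cell filters, doublets, thinning, CPM scaling, sex and the top cell. Scripts ran in Python 3.11.15 with scipy 1.17.1, pandas 2.3.3 and numpy 2.4.6. Some results on other connexin genes are not reported here.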

Additional observations from a re-analysis of the deposited data

Results flagged for a closer look

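Gja1 had CKO over WT ratios on both sides of 1: 1.66 in stromal cells, and 0.346, 0.182 (0.0508 to 0.543) and 0.130 (0.0239 to 0.465) in endothelial, endothelial-progenitor and megakaryocyte cells. Each interval excluded 1, and the difference between gates was not tested. Gja4 did the same, at 1.50, 76.1 (13.5 to 3025) and 12.8 in endothelial, endothelial-progenitor and megakaryocyte cells against 0.248 (0.0439 to 0.965) in stromal cells, where it rests on 10 and 3 UMIs. Single WT stromal cells held 6 and 3 of the 10. The stromal interval included 1 among Xist-positive cells (0.539, 0.0451 to 4.71) and among Y-linked-positive cells (0.144, 0.00319 to 1.12). The CKO stromal level, 0.449 CPM, was near the 0.430 CPM of CKO erythroid cells, and the WT level, 1.81 CPM, was above the 0.537 CPM that the count of 0 in WT erythroid cells allows. This difference was not tested either.

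Cells outside the compared gates also held Gja4. In cells that passed no gate, CKO had 17 UMIs in 5 of 24 cells, 32.6 CPM, and WT 0 in 52 cells, at least 12.2-fold higher against a floor of 3 counts over the gate. In cells of mixed gates CKO stood at 44.7 CPM in 21 cells and WT at 2.03 CPM in 20. Of the 44 mixed CKO UMIs, 25 lay in 8 cells that passed the megakaryocyte and erythroid gates.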

How the results depend on the processing

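No paired analysis was possible because each genotype had 1 library. Of 82 alternative values for the ratios of Gja4, Gja1 and Gjc1 that the report leads with, 71 lay inside the main interval or were bounds against the floor, 11 lay outside, and none changed side of 1. Endothelial Gja4 went from 1.50 to 2.61 with endothelial-progenitor cells added, 2.16 as a mean over single cells, 40.8 (7.15 to 1626) among Y-linked-positive cells and 3.63 without the top cell of each library. The Y-linked-positive class did not include the WT cells with 40 and 16 Gja4 UMIs. With 1 more UMI needed per marker the endothelial Gja4 ratio was 1.13, with an interval of 0.843 to 1.52. Megakaryocyte Gja4 went from 12.8 to 6.71 with 1 more marker, 31.2 (10.4 to 153) among Xist-positive and 4.55 among Y-linked-positive cells. Thinning to 6000 UMIs gave 0.178 for endothelial Gja1, 0.0651 (0.00154 to 0.428) for endothelial Gjc1 and 0.285 for stromal Gjc1, and endothelial Gjc1 was 0.513 among Xist-positive cells. Endothelial Gja5 turned from 0.187 to 1.22 (0.0982 to 64.2) among Y-linked-positive cells. The cause was not tested. Of levels in CPM, 115 of 153 alternative values stayed inside the main interval, and of shares of cells with a UMI 97 of 125. Thinning moved 13 of 14 shares, as fewer UMIs per cell are read.

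Further alternatives were chosen after seeing the data. CKO cells without a Smarcc1 UMI alone gave an endothelial Gja4 ratio of 1.69 (1.25 to 2.31), and the parts of the megakaryocyte gate gave 11.5 (1.99 to 462) for the gate alone and 9.15 for cells that also passed the progenitor gate. Genes past 2-fold numbered 978, 1092, 982, 1504 and 1075 in the endothelial, endothelial-progenitor, progenitor, megakaryocyte and stromal gates. With 100 UMIs needed they numbered 227, 297, 269, 506 and 391, and with 1 UMI 4699, 5145, 4838, 5254 and 4933, since fewer or more genes were compared. Low UMI counts limit Gja5, and the small number of WT cells, 23 and 37, limits endothelial-progenitor and megakaryocyte values.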
